A study of Mus musculus with 9 samples.

Results

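The major histocompatibility complex (MHC) genes of the mouse, named *H2-* after the locus that decides whether a graft is accepted, were followed in 9 bulk RNA-Seq libraries of whole liver. All rows of the count table that were annotated as protein coding and whose symbol starts with H2- were taken, which gave 34 of the 43346 genes listed. By gene family 24 were class I genes, 9 were class II genes and 1, *H2-Ke6*, encodes a steroid dehydrogenase (Hsd17b8), which is no MHC molecule. The mice were WT males of strain C57/BL6 aged 12 weeks, and each underwent resection of 70% of the liver. The 3 groups held 3 libraries each. Baseline libraries came from the resected lobes of vehicle-treated mice at 0 h, and the other 2 groups came from the remnant liver 40 h later, after vehicle or after NSC-87877 (NSC), a small molecule inhibitor of the phosphatase SHP2 that also acts on SHP1. Per the labels, NSC was given at 7.5 mg/kg per dose, 2 doses a day from 12 h before surgery, and vehicle was given alike. No NSC-treated baseline was among the libraries, so each 40 h group was compared with the same 3 baseline livers, and no source says whether a baseline liver and a remnant of equal number belonged to 1 animal. The resected and the remaining lobes also differ, since the operation removes the median and left lateral lobes.

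Class I molecules are built from a heavy chain and beta 2 microglobulin, are present on nearly all nucleated cells, and show peptides from inside the cell to CD8 T cells and receptors of natural killer cells. Class II molecules are pairs of an alpha and a beta chain that show peptides from engulfed proteins to CD4 T cells, and they are made mainly by B cells, dendritic cells and macrophages, where the invariant chain Cd74 guides them and the transactivator Ciita switches their genes on. In the liver, class I genes are transcribed in hepatocytes as well, among them *H2-Q10*, whose product is secreted, whereas class II genes are mostly read in the immune cells that reside there. Interferons raise both classes through promoter elements, the interferon response element of class I promoters and the Y box (an inverted CCAAT box) of class II promoters being among them.

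All 34 genes lay on chromosome 17, between positions 33996017 and 37483552 of GRCm38. Each overlapped the gene of the same Ensembl identifier in the GENCODE M21 annotation, 26 of them with the same start and end. RefSeq promoter windows (GRCm38.p6, 250 bases before to 50 after the start) were held for 31 of the 34, but not for *H2-Ab1*, *H2-Q1* and *H2-T24* among the genes tested. The 200 bases upstream of 5 genes are shown 5′ to 3′ because they set the 2 classes side by side: the class II chains *H2-Aa* and *H2-Eb1*, the classical class I genes *H2-K1* and *H2-D1*, whose ratio differed between baseline and 40 h, and the liver gene *H2-Q10*. Capitals mark GTTTCACTT, part of the class I interferon response element, and GATTGG, the core of the Y box, or CCAATC, the same core read on the other strand.
H2-Aa, chr17:34287824-34288023, minus strand: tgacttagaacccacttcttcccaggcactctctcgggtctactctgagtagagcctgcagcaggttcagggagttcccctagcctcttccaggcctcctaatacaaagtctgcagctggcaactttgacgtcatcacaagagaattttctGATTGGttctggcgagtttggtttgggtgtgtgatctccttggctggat
H2-Eb1, chr17:34305667-34305866, plus strand: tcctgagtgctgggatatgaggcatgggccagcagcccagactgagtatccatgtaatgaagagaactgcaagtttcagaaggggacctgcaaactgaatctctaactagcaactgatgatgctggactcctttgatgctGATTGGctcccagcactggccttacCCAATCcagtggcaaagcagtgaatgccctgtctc
H2-K1, chr17:34000348-34000547, minus strand: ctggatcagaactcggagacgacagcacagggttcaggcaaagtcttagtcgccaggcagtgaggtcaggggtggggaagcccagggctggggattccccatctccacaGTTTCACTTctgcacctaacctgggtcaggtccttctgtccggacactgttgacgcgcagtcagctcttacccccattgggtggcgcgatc
H2-D1, chr17:35262894-35263093, plus strand: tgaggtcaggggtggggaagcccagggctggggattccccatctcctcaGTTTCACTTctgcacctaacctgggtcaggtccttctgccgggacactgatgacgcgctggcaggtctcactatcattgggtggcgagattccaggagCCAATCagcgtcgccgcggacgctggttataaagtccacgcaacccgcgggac
H2-Q10, chr17:35469889-35470088, plus strand: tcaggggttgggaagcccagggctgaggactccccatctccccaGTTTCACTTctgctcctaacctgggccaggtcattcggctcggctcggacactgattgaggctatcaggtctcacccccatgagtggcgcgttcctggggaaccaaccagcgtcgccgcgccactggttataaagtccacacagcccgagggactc

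GTTTCACTT or its reverse complement AAGTGAAAC occurred in the windows of 9 of 22 class I genes and 0 of 8 class II genes, against 0.474% of all 27025 genes with a window. Of the 10 tested class I genes with a window it was present in 8 and missing from *H2-Q2* and *H2-T23*. GATTGG or CCAATC occurred in 8 of 8 class II windows and 16 of 22 class I windows, against 18.2% of all genes. In *H2-Aa* its first base lay 49 bases before the start, and *H2-Eb1* held 2 copies at 60 and 35 bases. The interferon element lay 91 bases before the annotated start of *H2-K1*, 151 bases before that of *H2-D1* and 156 bases before that of *H2-Q10*. The bases that follow the element were much alike in *H2-K1* and *H2-D1*, so these distances depend on where each start is annotated. *H2-K1* also held GATTGG or CCAATC in its window, but outside the bases shown. A match of letters is a description of the window and not a measured binding site.

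Between 23997363 and 42887589 reads fell on genes per library, and 3 reads, the limit that a count of 0 allows, corresponded to 0.07 to 0.125 CPM, the count relative to depth. All 9 libraries had the make-up of liver, with *Alb*, the serum albumin gene of hepatocytes, between 36800 and 50600 FPKM. Levels are given as FPKM, reads on a gene relative to its length and the depth of the library, scaled between libraries by trimmed mean of M values (TMM) factors. Of the 34 genes, 20 had enough reads to be tested. The other 14 comprised 9 class I genes with no read in any library (*H2-T3*, *H2-M1*, *H2-M9* and *H2-M10.1* to *H2-M10.6*), *H2-M11*, *H2-M5*, *H2-M2* and the class II gene *H2-Eb2* with at most 7 reads in a library, and *H2-Oa* with 0 to 27 reads.

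Levels among the tested genes spanned over 3 orders of magnitude. At baseline *H2-Q10* averaged 483 ± 37.7 FPKM (SD, n = 3), *H2-K1* 428 ± 32.1 and *H2-D1* 193 ± 13.9. *H2-T23*, which encodes the nonclassical Qa-1 molecule, followed at 63.0 ± 1.31 FPKM. The class II chains stood far lower, *H2-Eb1* at 17.6 ± 7.48, *H2-Aa* at 12.1 ± 4.59 and *H2-Ab1* at 11.6 ± 4.83 FPKM. *H2-Aa* and *H2-Ab1* were closer than their spreads. The accessory class II genes *H2-DMa*, *H2-DMb1*, *H2-DMb2* and *H2-Ob* averaged 0.41 to 1.48 FPKM. Class I genes took 0.25% to 0.416% of all gene reads in a library and class II genes 0.00134% to 0.00892%.

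**Figure D1:**
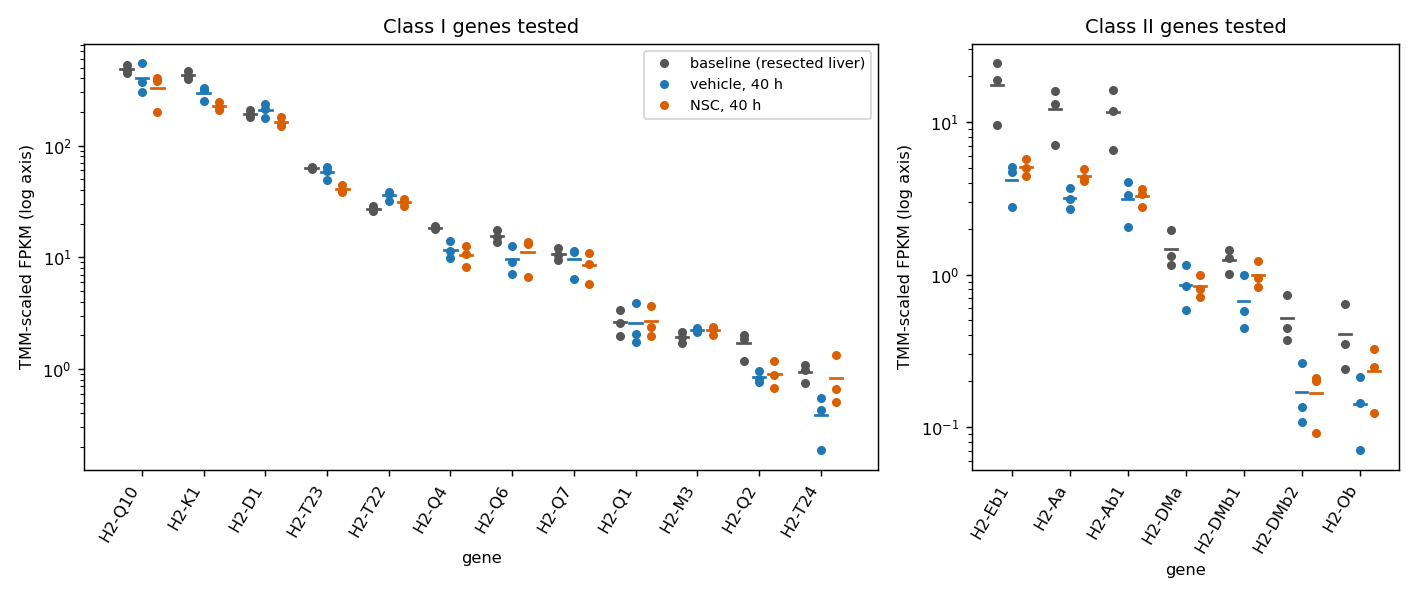
TMM-scaled FPKM (log axis) of the 12 class I and 7 class II genes tested, with 1 point per liver and a short line at the mean of each group of 3. The 3 class II chains *H2-Eb1*, *H2-Aa* and *H2-Ab1* lie lower in all 6 livers at 40 h than in any baseline liver, while *H2-D1* overlaps between baseline and both 40 h groups.

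The first question was how the 2 classes stood 40 h after hepatectomy without the inhibitor. In the vehicle-treated remnants the 3 class II chains fell to between 3.68-fold and 4.17-fold lower levels than at baseline, whereas among the classical class I genes *H2-K1* fell 1.44-fold and *H2-D1* did not pass the test. Of the 20 genes tested, 8 fell and 1 rose at an adjusted p under 0.05 (edgeR's quasi-likelihood test, Benjamini-Hochberg adjustment over 15024 genes), where 11.0% of all genes tested fell and 12.7% rose. Of the 7 class II genes 4 fell, all 4 of them by more than 1.5 on the log2 scale, a fold that 2.19% of all genes passed in that direction, and the median log2 fold change of the 7 was -1.57 (range -2.06 to -0.77). Of the 12 class I genes 3 fell and 1 rose, with a median of -0.20 (range -1.25 to 0.41). The median over all genes tested was 0.013. The remaining *H2-* gene, *H2-Ke6*, also fell.

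*H2-Aa*, the alpha chain of the I-A molecule, was measured at 16.1, 7.12 and 13.1 FPKM in baseline livers 1 to 3 and at 3.12, 3.69 and 2.70 FPKM in vehicle livers 1 to 3. Every vehicle liver lay below every baseline liver, and baseline liver 2 was the lowest of its group. Here and below, separation from baseline is a description, as the share of all genes set apart from baseline is not given. The log2 fold change of *H2-Aa* was -1.93 ± 0.26 (SE, adjusted p = 0.000522). *H2-Ab1*, the I-A beta chain, had 16.2, 6.60 and 11.9 FPKM at baseline and 3.32, 4.02 and 2.05 FPKM after vehicle, in the same order of groups. Its log2 fold change was -1.88 ± 0.33 (adjusted p = 0.0023). *H2-Eb1*, the beta chain of I-E, had 24.3, 9.52 and 19.0 FPKM at baseline and 5.09, 4.73 and 2.77 FPKM after vehicle. *H2-Ea-ps*, the locus of the I-E alpha chain, had no read in any library, and I-E protein was not measured here. *H2-Eb1* showed the lowest value of the 3 in the fit, -2.06 ± 0.33 (adjusted p = 0.00155). All 3 chains passed the test under each of 17 alternatives, with adjusted p between 2.97e-10 and 0.0114. Without baseline liver 2, the lowest of its group in each chain, the log2 fold changes were -2.20, -2.16 and -2.36.

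The genes of peptide exchange showed lower and noisier levels. H2-DM, made of *H2-DMa* and 1 of 2 beta chains, exchanges peptides on class II molecules, and H2-O, made of *H2-Oa* and *H2-Ob*, restrains it. *H2-DMb2* had 0.443, 0.375 and 0.733 FPKM at baseline and 0.263, 0.136 and 0.108 FPKM after vehicle, with no overlap (log2 fold change -1.57 ± 0.49, adjusted p = 0.0361). Its call rested on few reads, 4 to 38 per library over the 9, and was lost without baseline liver 1 or 3 or vehicle liver 2 or 3 (adjusted p up to 0.164). *H2-DMb1* had 1.28, 1.01 and 1.44 FPKM at baseline and 0.573, 0.995 and 0.447 FPKM after vehicle, so that the groups were separated by 0.995 against 1.01 alone. Its log2 fold change of -0.87 ± 0.35 did not pass (adjusted p = 0.0896). These 2 beta chains share 19.1% and 19.9% of their 75-base stretches with each other or other transcripts, so reads could have been split between them. *H2-DMa* averaged 1.48 ± 0.426 FPKM at baseline and 0.859 ± 0.285 after vehicle (log2 fold change -0.77 ± 0.33, adjusted p = 0.106). *H2-Ob* averaged 0.41 ± 0.205 and 0.142 ± 0.0717 FPKM (-1.49 ± 0.51, adjusted p = 0.0529), and it passed under 8 of 16 alternatives. *H2-Oa*, which was not tested, had 9, 5 and 27 reads at baseline and 4, 3 and 3 after vehicle.

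Of the classical class I genes, one passed the test and one did not. *H2-K1* was measured at 462, 399 and 422 FPKM at baseline and at 326, 314 and 250 FPKM after vehicle, with every vehicle liver below every baseline liver. Its log2 fold change of -0.53 ± 0.17 passed (adjusted p = 0.0403), but the call was lost under 9 of 17 alternatives. These were any 1 of the baseline or vehicle livers or NSC liver 2 left out, scaling by library size only and no filter on low counts (adjusted p 0.0572 to 0.138 over these). *H2-D1* had 207, 179 and 194 FPKM at baseline and 234, 211 and 178 FPKM after vehicle. These groups overlapped, and the log2 fold change was 0.10 ± 0.16 (95% interval -0.25 to 0.46, adjusted p = 0.69). *H2-Q10* had 448, 479 and 523 FPKM at baseline and 303, 546 and 370 FPKM after vehicle, the widest spread of these 3 genes (-0.25 ± 0.28, adjusted p = 0.558).

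Among the other class I genes the direction was mixed. *H2-Q4*, a Qa region gene, had 18.5, 19.0 and 17.9 FPKM at baseline and 11.3, 14.1 and 9.78 FPKM after vehicle (-0.65 ± 0.18, adjusted p = 0.0214). *H2-Q2*, of the same region, had 2.03, 1.18 and 1.86 FPKM and then 0.769, 0.808 and 0.965 FPKM (-1.0 ± 0.30, adjusted p = 0.0294). The groups of both genes were apart, yet both calls were lost without baseline liver 1 or 3 or vehicle liver 1 or 3. The call of *H2-Q4* was also lost without baseline liver 2, and under 5 of 17 alternatives in all (adjusted p up to 0.0883). That of *H2-Q2* was also lost without vehicle liver 2, and under 6 of 17 alternatives in all (adjusted p up to 0.113). *H2-T22*, whose product is a ligand of some gamma delta T cells, was the 1 gene that rose, with 26.8, 28.8 and 26.0 FPKM at baseline and 38.7, 32.2 and 37.2 FPKM after vehicle (0.41 ± 0.14, adjusted p = 0.0488). That call was lost under 10 of 17 alternatives, among them each baseline liver, vehicle liver 1 or 3 or NSC liver 2 left out (adjusted p up to 0.163), and 19.6% of its 75-base stretches are shared with other genes, including *H2-T10*. *H2-T24* averaged 0.935 ± 0.177 FPKM at baseline and 0.386 ± 0.183 after vehicle without passing (-1.25 ± 0.44, adjusted p = 0.0569). *H2-T23*, *H2-Q7*, *H2-Q1* and *H2-M3*, the last of which presents formylated peptides, had log2 fold changes of -0.15 to 0.20, and *H2-Q6* one of -0.68 ± 0.28 (adjusted p = 0.101).

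*H2-Ke6* had 45.3, 39.0 and 48.6 FPKM at baseline and 21.7, 28.1 and 26.0 FPKM after vehicle (-0.81 ± 0.15, adjusted p = 0.00302), and it passed under all 17 alternatives. However, 94.2% of its 75-base stretches also belong to the readthrough gene *Gm20427*, so the 2 cannot be told apart by most reads.

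**Figure D2:**
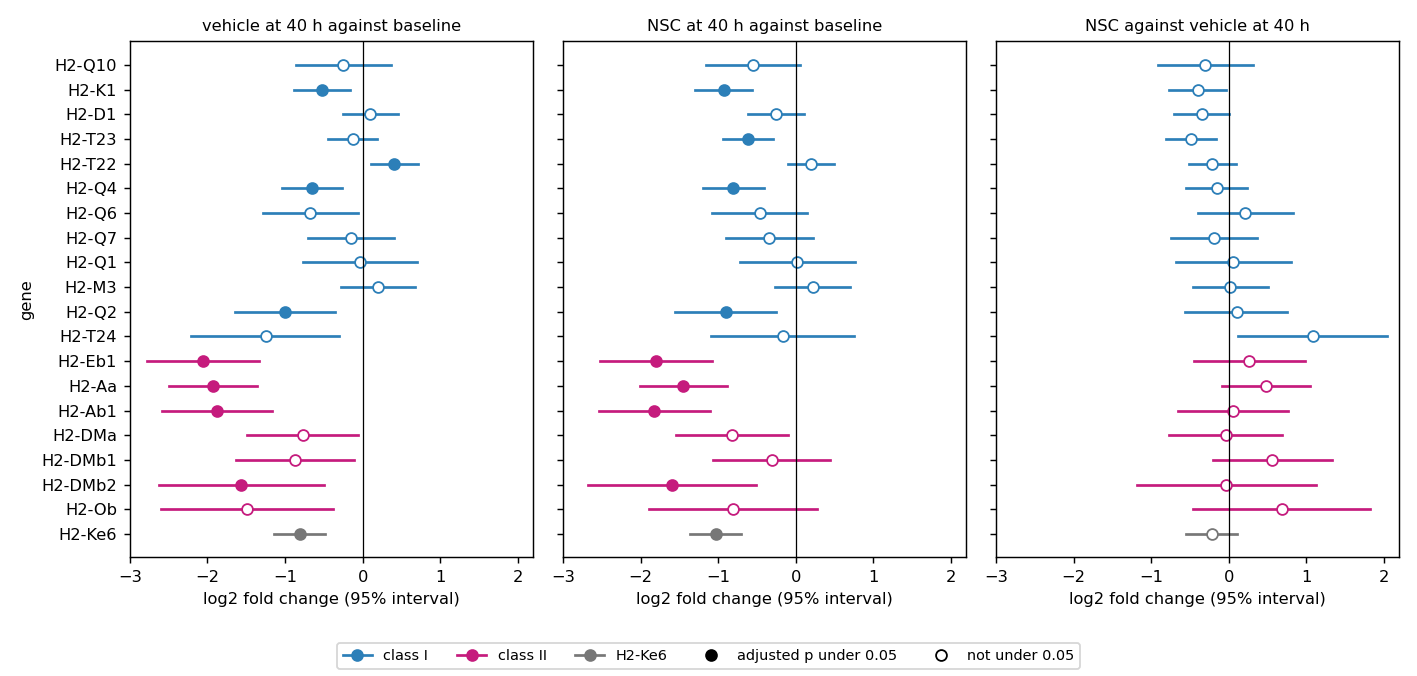
Log2 fold changes of the 20 tested *H2-* genes with 95% intervals in the 3 comparisons, class I in blue, class II in magenta and *H2-Ke6* in grey, filled where the adjusted p (edgeR) was under 0.05. Class II genes lie left of zero in both comparisons with baseline, 9 of 12 class I genes do so in each of them, and none is filled in the direct comparison of NSC with vehicle.

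The second comparison set the NSC-treated remnants against the same baseline livers. The 3 class II chains were again lower, by 2.73-fold to 3.55-fold, and *H2-K1* and *H2-T23* were lower as well. Of the 20 genes 9 fell, where 16.5% of all genes tested fell, and 0 rose by edgeR's quasi-likelihood test, where 18.2% of all genes rose. For the rising direction the count was 0 also at an unadjusted p under 0.05 and by DESeq2. Of the 7 class II genes 4 fell, 3 of them past 1.5 on the log2 scale (2.75% of all genes), with a median of -1.45. Of the 12 class I genes 4 fell, with a median of -0.40 (range -0.93 to 0.22), and the median over all genes was 0.013. As both comparisons use the same baseline livers, their values are given side by side and are not independent.

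In NSC livers 1 to 3 *H2-Aa* stood at 4.90, 4.08 and 4.32 FPKM, below all baseline livers (log2 fold change -1.45 ± 0.26, adjusted p = 0.00158). *H2-Ab1* stood at 3.63, 2.76 and 3.39 FPKM (-1.83 ± 0.33, adjusted p = 0.00181). *H2-Eb1* stood at 5.70, 4.99 and 4.46 FPKM (-1.80 ± 0.33, adjusted p = 0.00206). The 3 NSC livers were close to each other in all 3 chains, and the calls held under each of 17 alternatives. *H2-DMb2* had 0.211, 0.199 and 0.0915 FPKM (-1.59 ± 0.50, adjusted p = 0.0269), a call lost without baseline liver 3 or NSC liver 2 or 3 and with GC correction (adjusted p up to 0.131). *H2-DMa* averaged 0.837 ± 0.138 FPKM (-0.82 ± 0.33, adjusted p = 0.0738), *H2-DMb1* 1.00 ± 0.21 (-0.31 ± 0.35, adjusted p = 0.518) and *H2-Ob* 0.232 ± 0.10 (-0.81 ± 0.50, adjusted p = 0.226). *H2-Oa* had 8, 2 and 0 reads.

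*H2-K1* was measured at 246, 209 and 219 FPKM in the NSC livers, the lowest of the 3 groups with no overlap (-0.93 ± 0.17, adjusted p = 0.00175). *H2-D1* had 180, 150 and 158 FPKM, overlapping the baseline range by its highest liver (-0.25 ± 0.16, adjusted p = 0.256). *H2-T23* had 61.7, 64.3 and 62.9 FPKM at baseline, 59.6, 64.1 and 49.3 FPKM after vehicle and 38.4, 40.2 and 44.8 FPKM after NSC. The NSC livers were below every other liver, and *H2-T23* fell against baseline by 0.61 ± 0.15 on the log2 scale (adjusted p = 0.00725). *H2-Q4* had 8.13, 12.7 and 10.8 FPKM (-0.81 ± 0.18, adjusted p = 0.00524). The calls of *H2-K1*, *H2-T23* and *H2-Q4* held under each of 17 alternatives. *H2-Q2* had 0.88, 0.669 and 1.17 FPKM (-0.90 ± 0.30, adjusted p = 0.034), with a call lost under 7 of 17 alternatives, among them baseline liver 1 or 3 or NSC liver 1 or 2 left out (adjusted p up to 0.291).

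*H2-Q10* had 200, 407 and 383 FPKM in the NSC livers, all below the baseline range, but NSC liver 1 lay far under the other 2 and the test did not pass (-0.55 ± 0.28, adjusted p = 0.147). *H2-T22* had 31.1, 28.9 and 33.4 FPKM (0.20 ± 0.14, adjusted p = 0.284). *H2-Q6*, *H2-Q7*, *H2-Q1*, *H2-M3* and *H2-T24* did not pass, with log2 fold changes of -0.46 to 0.22. *H2-Ke6* had 19.4, 21.1 and 24.6 FPKM (-1.03 ± 0.15, adjusted p = 0.000533).

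The direct comparison of NSC with vehicle at 40 h asked whether the inhibitor altered these genes beyond the operation. By edgeR's quasi-likelihood test 0 of the 20 genes passed, where 0.0399% of all genes tested did. At an unadjusted p under 0.05 there were 3, against 19.5% of all genes, and DESeq2 called 1, *H2-T23*. These 3 were *H2-T23* (log2 fold change -0.49 ± 0.15, 95% interval -0.81 to -0.17, adjusted p = 0.125), *H2-K1* (-0.40 ± 0.17, interval -0.77 to -0.03, adjusted p = 0.223) and *H2-T24* (1.08 ± 0.44, interval 0.12 to 2.04, adjusted p = 0.211). With DESeq2 the log2 fold change of *H2-T23* was -0.48 (adjusted p = 0.0341), and over the 17 alternatives its adjusted p ran from 0.0341 to 0.465. For *H2-K1* and *H2-T23* every NSC liver lay below every vehicle liver, where 12.2% of all genes were apart in that direction. *H2-D1* gave -0.35 ± 0.16 (interval -0.71 to 0.00, adjusted p = 0.259).

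Class II genes had a median log2 fold change of 0.26 between NSC and vehicle, class I genes one of -0.17 and all genes tested one of 0.015. *H2-Aa* was higher in each NSC liver than in each vehicle liver, where 10.3% of all genes were apart in that direction, but it did not pass (0.48 ± 0.26, interval -0.09 to 1.05, adjusted p = 0.323). The intervals were -0.66 to 0.76 for *H2-Ab1* and -0.45 to 0.98 for *H2-Eb1*.

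Ratios within a library do not depend on how libraries are scaled. The sum of the 3 class II chains amounted to 8.47%, 4.02% and 7.14% of the sum of *H2-K1* and *H2-D1* in the baseline livers, by FPKM. It came to 2.06%, 2.37% and 1.76% in the vehicle livers and 3.34%, 3.29% and 3.23% in the NSC livers. The means were 6.54% ± 2.28 (SD, n = 3), 2.06% ± 0.305 and 3.29% ± 0.0551, and the 3 groups did not overlap. Part of the gap between the 40 h groups lay in the denominator, as the class I sum averaged 504 ± 68.4 FPKM after vehicle and 387 ± 34.7 after NSC, while the class II sum averaged 10.5 ± 2.6 and 12.7 ± 1.29. With 3 livers against 3, an exact permutation test cannot give a p below 0.1, so none was run.

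The ratio of *H2-K1* to *H2-D1*, chosen after its values had been seen and given as a description, is the FPKM of one divided by that of the other. It was 2.24, 2.23 and 2.17 in the baseline livers, 1.40, 1.48 and 1.40 in the vehicle livers, and 1.36, 1.40 and 1.39 in the NSC livers. The group means were 2.21 ± 0.0379, 1.43 ± 0.0462 and 1.38 ± 0.0208 (SD, n = 3). All 6 livers at 40 h thus had less *H2-K1* relative to *H2-D1* than any baseline liver, and the 2 treatments overlapped. The sequences of the 2 genes share little at read length, since 1.33% of the 75-base stretches of *H2-K1* and 6.9% of those of *H2-D1* occur in another gene.

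**Figure D3:**
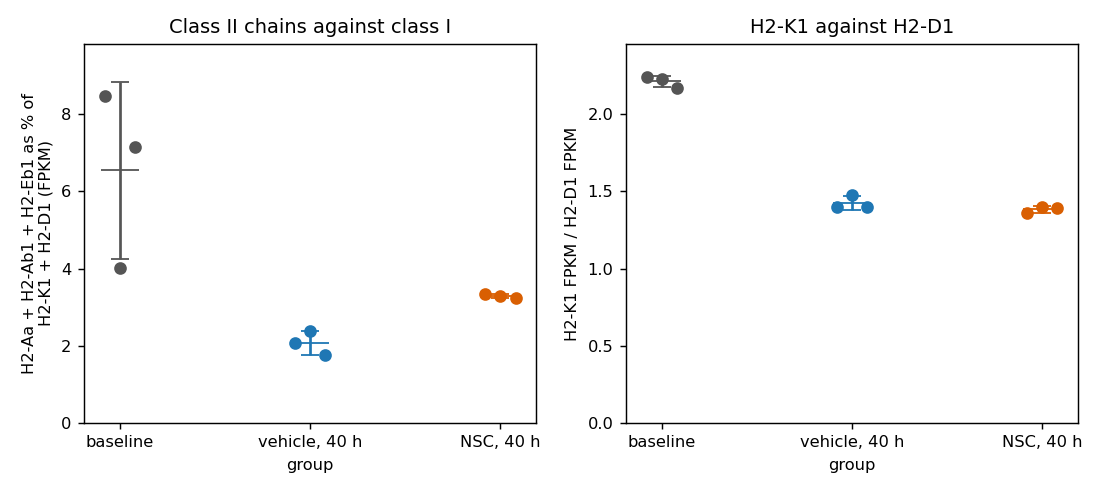
Within-library ratios in each liver (points) with the mean and SD of each group of 3. On the left the FPKM of 3 class II chains as a percent of *H2-K1* plus *H2-D1*, which falls from 4.02% or more at baseline to 3.34% or less at 40 h, and on the right *H2-K1* divided by *H2-D1*, which is 2.17 or more at baseline and 1.48 or less at 40 h.

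The genes that serve the class II pathway did not move as one. *Cd74*, the invariant chain, had 54.1, 26.1 and 46.5 FPKM at baseline, 9.28, 13.5 and 5.97 FPKM after vehicle and 13.6, 12.3 and 8.44 FPKM after NSC. It fell in both comparisons with baseline, with log2 fold changes of -2.13 ± 0.35 (adjusted p = 0.00267) and -1.88 ± 0.35 (adjusted p = 0.00314), and baseline liver 2 was again the lowest of its group. The ratio of *Cd74* to the sum of the 3 class II chains stayed between 0.693 and 1.12 over the 9 livers. *Ciita*, the class II transactivator, was low at 0.0971 to 0.295 FPKM (15 to 47 reads), and neither comparison with baseline passed (-0.38 ± 0.39, adjusted p = 0.528 for vehicle and -0.90 ± 0.41, adjusted p = 0.108 for NSC).

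Of the 9 pathway genes matched, 1 rose and 1 fell after vehicle, and 3 rose and 1 fell after NSC, *Cd74* being the one that fell. Over all genes tested, 12.7% rose and 11.0% fell after vehicle, and 18.2% rose and 16.5% fell after NSC. The pathway genes that rose were proteases and a reductase of the lysosome that cut or unfold antigens. *Lgmn*, an asparagine endopeptidase, rose after vehicle (0.84 ± 0.18, adjusted p = 0.00676) and after NSC (0.99 ± 0.18, adjusted p = 0.00189). *Ifi30*, a thiol reductase, rose after NSC (0.76 ± 0.17, adjusted p = 0.00423), and so did *Ctss*, the cathepsin that trims the invariant chain (0.77 ± 0.27, adjusted p = 0.0484), with 32.2 FPKM in NSC liver 1 against 16.3 and 15.9 in the other NSC livers. The medians over the 9 genes were 0.27 and 0.19.

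For class I, the 15 genes of assembly and peptide supply had medians of -0.22 after vehicle and -0.24 after NSC. After vehicle 1 of them fell, *Psme1*, a subunit of the proteasome activator (-0.67 ± 0.17, adjusted p = 0.015). After NSC 3 fell. These were *Tap1* (-0.73 ± 0.19, adjusted p = 0.0111) and *Tap2* (-0.91 ± 0.20, adjusted p = 0.00407), the subunits of the peptide transporter, and *Nlrc5*, the class I transactivator (-0.79 ± 0.25, adjusted p = 0.0282). Over all genes tested 11.0% fell after vehicle and 16.5% after NSC, so both counts of this list were near the general share. *Tap2* had 4.19, 5.89 and 4.77 FPKM at baseline, 4.73, 4.83 and 3.20 FPKM after vehicle and 2.36, 2.61 and 2.93 FPKM after NSC. The NSC livers lay below all others, but the direct comparison with vehicle did not pass (-0.69 ± 0.20, adjusted p = 0.113). *B2m*, the light chain of class I, had 985 to 1540 FPKM over the 9 livers and passed in neither comparison with baseline (-0.34 ± 0.17, adjusted p = 0.179 and -0.04 ± 0.17, adjusted p = 0.878).

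Of the 13 tested genes of the interferon gamma path, 3 rose and 1 fell after vehicle, and 2 rose and 1 fell after NSC. Over all genes tested, 12.7% rose and 11.0% fell after vehicle, and 18.2% rose and 16.5% fell after NSC. The receptor chains *Ifngr1* (0.77 ± 0.15 and 0.84 ± 0.15, adjusted p = 0.00433 and 0.00181) and *Ifngr2* (0.72 ± 0.18 and 1.04 ± 0.18, adjusted p = 0.0136 and 0.00136) rose in both. *Cxcl10*, a chemokine induced by interferon, rose after vehicle (1.98 ± 0.40, adjusted p = 0.00431) and did not pass after NSC (0.40 ± 0.41, adjusted p = 0.472). *Irf2*, a repressor of interferon targets that also takes part in class I transcription, fell in both (-1.12 ± 0.25 and -1.05 ± 0.25, adjusted p = 0.00801 and 0.00753). *Ifng* itself had at most 2 reads in a library and was not tested.

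In bulk tissue fewer cells of a type and less RNA per cell cannot be told apart, so the markers of cells that carry class II were read beside the class II genes. The summed level of 9 B cell markers was 4.20, 1.57 and 6.49 FPKM at baseline, 1.32, 2.57 and 0.667 FPKM after vehicle and 2.23, 1.80 and 1.53 FPKM after NSC. The groups overlapped through baseline liver 2, which was the lowest baseline liver in B cell markers as it was in class II chains and *Cd74*. Vehicle liver 3 was the lowest of all 9 in each of these sums. Neither rank was particular to B cells. Baseline liver 2 was also the lowest of its group in T and natural killer cell, dendritic cell, macrophage and endothelial markers, though not in monocyte markers. Vehicle liver 3 was also the lowest of all 9 in dendritic cell and macrophage markers. Of the 7 B cell markers tested, 7 had negative log2 fold changes in each comparison with baseline, with medians of -1.60 and -0.92. None of the 9 was at 0 in every library. The 10 markers of T and natural killer cells summed to 1.72 to 3.95 FPKM at baseline, 0.655 to 1.12 after vehicle and 1.22 to 1.92 after NSC. Of the 4 tested, *Cd3g* alone fell after vehicle (-2.46 ± 0.64, adjusted p = 0.0159), where 11.0% of all genes tested fell. After NSC 0 of the 4 fell, where 16.5% of all genes did. *Cd3g* had 1 to 20 reads per library.

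Markers of other cells that carry class II were summed in the same way. Counts of markers called stand beside 12.7% of all genes tested that rose and 11.0% that fell after vehicle. After NSC these shares were 18.2% and 16.5%. The 10 dendritic cell markers summed to 2.45 to 2.93 FPKM at baseline, 1.89 to 2.40 after vehicle and 1.96 to 2.90 after NSC, and 1 of 8 tested fell after vehicle, *Ccr7* (-2.73 ± 0.91, adjusted p = 0.048). The 11 markers of Kupffer cells and macrophages summed to 121 to 161 FPKM at baseline, 118 to 210 after vehicle and 200 to 325 after NSC. Of these 2 rose after vehicle and 5 after NSC, among them *Marco* (3.39 ± 0.59, adjusted p = 0.00561 and 4.10 ± 0.60, adjusted p = 0.0019) and *Cd68* (1.04 ± 0.28 and 0.97 ± 0.28, adjusted p = 0.02 in both). *Vsig4* (1.11 ± 0.23, adjusted p = 0.00322), *Timd4* (1.48 ± 0.31, adjusted p = 0.00397) and *Cd5l* (1.39 ± 0.22, adjusted p = 0.000817) rose after NSC only. *Clec4f*, another marker of Kupffer cells, did not pass (-0.54 ± 0.21, adjusted p = 0.0788 and 0.08 ± 0.21, adjusted p = 0.804). The 7 monocyte markers summed to 23.4 to 38.6 FPKM at baseline, 32.3 to 56.8 after vehicle and 38.4 to 88.7 after NSC, with 2 and 4 of them higher. NSC liver 1 held the highest macrophage, monocyte and endothelial sums of the 9 libraries (325, 88.7 and 107 FPKM). The part that these cell markers had in the class II result was not tested. Without NSC liver 1, *H2-Aa*, *H2-Ab1* and *H2-Eb1* passed in both comparisons with baseline, at log2 fold changes of -1.92, -1.87 and -2.05 after vehicle and -1.53, -1.91 and -1.89 after NSC.

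**Figure D4:**
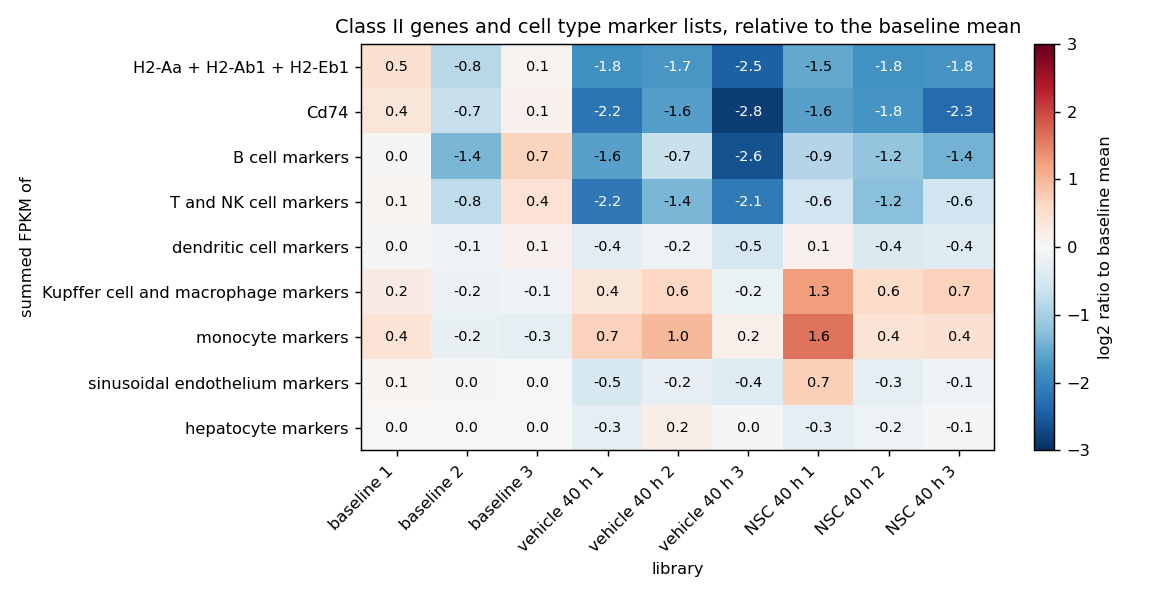
Log2 ratio of summed FPKM to the baseline mean for the 3 class II chains, *Cd74* and 7 lists of cell type markers in each of the 9 libraries (blue lower, red higher). The class II chains range from -2.46 to -1.54 at 40 h, the B cell markers from -2.62 to -0.67, and the macrophage markers from -0.20 to 1.26.

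Among endothelial markers, 3 of 8 fell after vehicle, *Kdr* (-0.92 ± 0.23, adjusted p = 0.0134), *Dnase1l3* (-0.86 ± 0.21, adjusted p = 0.013) and *Fcgr2b* (-0.60 ± 0.19, adjusted p = 0.0394). After NSC 0 of the 8 fell, and the medians of the list were -0.32 after vehicle and 0.03 after NSC. Over all genes tested, 12.7% rose and 11.0% fell after vehicle, and 16.5% fell after NSC. The endothelial sums were 62.9 to 68.0 FPKM at baseline, 47.2 to 55.0 after vehicle and 53.5 to 107 after NSC. Hepatocyte markers, read beside the class I genes, included 1 that rose and 1 that fell of 9 after vehicle and 2 that fell after NSC, and the medians were -0.02 and -0.21. Their sum was 66500 to 67500 FPKM at baseline, 55500 to 77800 after vehicle and 55200 to 64100 after NSC, so that every NSC liver lay below every baseline liver while the vehicle livers overlapped both groups. Most of the sum was *Alb*, with 45200 of 67100 FPKM in the baseline means. *Alb* itself overlapped between NSC and baseline (-0.10 ± 0.20, adjusted p = 0.738). The part of this sum in the levels of *H2-K1* and *H2-T23* was not tested.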

How the data were processed

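Whole liver was sequenced as stranded poly-A libraries, 9 in 3 groups of 3. The authors deposited raw counts per gene, obtained with STAR 2.6.1 and Subread 1.5.1 (featureCounts) per the submitters' processing notes, within the MAP-RSeq pipeline. The deposited FPKM are those counts relative to gene length and to the library's total. The notes and methods name the human build hg38, while identifiers and coordinates in the deposited data are those of mouse GRCm38. Reads that match several *H2-* genes may have been dropped or split in the authors' counting, so levels of close paralogs are uncertain.

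The counts were tested with edgeR 4.0.16 under R 4.3.3 (with limma 3.58.1), and DESeq2 1.42.0 served as an alternative. After TMM scaling and filterByExpr, 1 robust quasi-likelihood model covered the 9 libraries, with the group as its term. P-values were two-sided and adjusted over 15024 genes by the Benjamini-Hochberg method, with 0.05 as the threshold and a log2 fold of 1.5 given beside it. Intervals are 95% intervals of the fit. The printed FPKM were recomputed from the counts and gene lengths with TMM-scaled totals. Promoters and plots were made with Python 3.11.15, pandas 2.3.3 and matplotlib 3.10.9. In data simulated for vehicle against baseline, 73 of 200 genes with a 2-fold change and 162 of 200 with a 4-fold change were called, beside 4 and 9 false calls.

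The members, lists and tests were chosen with earlier results of these data known, and the lists are of general knowledge. Values per library are given for the classical and liver class I genes, the class II chains and accessory genes, and any *H2-* gene that passed the test. Of the 2 antigen presentation lists the genes that passed were named, with *B2m*, *Cd74*, *Ciita* and *Nlrc5*. Of other lists at most 4 tested genes were named, apart from the macrophage list, where all that rose were named. Some single genes of these lists are not reported here. *March1*, of the class II list, was left out because its symbol is listed in a form shared with another gene. The chi-square per gene between libraries of a group was 24.4 to 147, so no library repeated another of its group. Nothing ties libraries of equal number to 1 mouse, and p-values measure the spread between these livers. Alternatives were DESeq2, other scalings and filters, GC correction (a loess curve of span 0.5 per library, GC known for 99.2% of tested genes), the replicate block, the compared groups alone, and each library left out. Floors cover counting error only.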

Additional observations from a re-analysis of the deposited data

How the results depend on the processing

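Of the 34 genes, the calls of *H2-Aa*, *H2-Ab1*, *H2-Eb1* and *H2-Ke6* against baseline, and those of *H2-K1*, *H2-Q4* and *H2-T23* after NSC, held in all 17 alternatives. The count of genes that rose after vehicle was 0 with RLE factors, with no factors beyond library size, without a filter (any gene of 1 count or more) and with the replicate block, and 0 to 1 with a library left out. The count that fell after vehicle was 4 to 11 with a library left out, 4 without baseline liver 1, baseline liver 3 or vehicle liver 3, and 5 without vehicle liver 1. The median log2 fold change of class I genes after vehicle was -0.54 with DESeq2 and -0.53 with all genes of at least 1 count, which include more genes of low count, and -0.40 to -0.10 with a library left out. After NSC it was -0.27 with library size only, -0.19 with GC correction and -0.58 to -0.31 with a library left out. Between NSC and vehicle it was -0.05, -0.02 and -0.23 to -0.02 in the same order. Library size alone moved the median of all genes to 0.154 after NSC against baseline and 0.142 against vehicle. DESeq2 called 1 gene lower in the direct comparison.

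Values that did not pass the test changed sign under some settings, and the cause was not tested. Between NSC and vehicle, library size only gave 0.10 for *H2-DMa* and 0.08 for *H2-DMb2*, and GC correction gave 0.05 for *H2-Q4*, 0.21 for *H2-DMa*, 0.12 for *H2-DMb2* and 0.15 for *H2-Ke6*. After NSC, GC correction gave 0.08 for *H2-D1*. With a library left out the ranges between NSC and vehicle were -0.03 to 0.08 for *H2-M3*, -0.24 to 0.45 for *H2-DMb2*, -0.25 to 0.22 for *H2-DMa*, -0.17 to 0.27 for *H2-Ab1*, -0.42 to 0.01 for *H2-Q7* and -0.12 to 0.27 for *H2-Q2*, and the range after vehicle was -0.27 to 0.08 for *H2-Q7*.

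Over all genes the direct comparison was the least settled, with 6 genes called, 733 by DESeq2, 221 with all genes of at least 1 count, 1 with library size only and 0 with GC correction. Leaving out a library gave 0 to 994 genes, 994 without NSC liver 1 and 111 without vehicle liver 3, and 0 of them were *H2-* genes. Samples of the same number did not deviate together, with correlations of -0.05 to 0.13 of which 1 of 9 was over 0.1, so the numbers were not taken as pairs. With the replicate block, 9, 10 and 0 *H2-* genes were called in the 3 comparisons and 11 genes in all in the third, *H2-T22* after vehicle had an adjusted p of 0.0659, and *H2-Q10* after NSC passed (-0.62, adjusted p = 0.0458). Among the class II genes, *H2-DMb2*, *H2-Ob* and *H2-Oa* had at most 38, 61 and 27 reads in a library, which limits their precision.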

Other observations

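Genes outside the protein-coding *H2-* set were measured in the same fit. *H2-K2*, annotated as an unprocessed pseudogene beside *H2-K1*, had 12.8, 12.1 and 11.6 FPKM at baseline, 4.80, 5.88 and 6.51 FPKM after vehicle and 2.57, 2.52 and 3.21 FPKM after NSC, so that the 3 groups were apart. Its log2 fold changes against baseline were -1.09 ± 0.19 (adjusted p = 0.00189) and -2.14 ± 0.20 (adjusted p = 3.81e-05). NSC against vehicle gave -1.05 ± 0.19 without passing (95% interval -1.47 to -0.62, adjusted p = 0.0847). Relative to *H2-K1* it came to 2.75% to 3.04% at baseline, 1.47% to 2.61% after vehicle and 1.05% to 1.46% after NSC. The polymorphic pseudogene *H2-Q5* fell after NSC (-0.92 ± 0.26, adjusted p = 0.0155) and not by the test after vehicle (-0.69 ± 0.25, adjusted p = 0.069). *H2-Ea-ps*, the locus of the I-E alpha chain, had no read in any library.

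Class I-like genes located elsewhere in the genome were mostly lower. Of 7, 4 fell after vehicle and 4 after NSC, with medians of -0.51 and -0.47. Over all genes tested, 11.0% fell and 12.7% rose after vehicle, and 16.5% fell and 18.2% rose after NSC. *Cd1d1*, which presents lipids to natural killer T cells, fell in both (-0.87 ± 0.16, adjusted p = 0.003 and -0.67 ± 0.16, adjusted p = 0.00787), as did *Fcgrt*, the neonatal Fc receptor (-0.51 ± 0.16, adjusted p = 0.0388 and -0.79 ± 0.16, adjusted p = 0.00329). Among 5 tested costimulation genes, *Icosl* rose in both (2.11 ± 0.32, adjusted p = 0.000923 and 1.73 ± 0.32, adjusted p = 0.00189), *Cd86* rose after NSC (1.34 ± 0.33, adjusted p = 0.00794), while *Cd83* fell after NSC (-1.86 ± 0.64, adjusted p = 0.0414).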
